A study of Homo sapiens with 6 samples.

Results

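The interferon regulatory factors are a family of transcription factors. Transcripts of 8 family genes, IRF1 to IRF5 and IRF7 to IRF9, were followed in an acute myeloid leukaemia line given siRNA against mutant nucleophosmin. Members were taken as the rows of the deposited gene table with these NCBI symbols, which gave 8 of 28307 genes. Of these, 7 were abundant enough to be tested, among 12938 tested genes in all. The cells were OCI-AML3, an established human line whose NPM1 gene carries a leukaemic mutation that places its protein in the cytoplasm (NPM1c). They were transfected by lipid reagent with an siRNA against NPM1c (siNPM1c, 3 libraries) or with a control siRNA (siControl, 3 libraries), each at 10 nM, and total RNA was taken after 3 days. Both groups carry the label WT for genotype, share 1 batch label, and stand for a single cell line, and nothing in the labels says that replicates were separate cultures. The p-values therefore weigh differences against library-to-library spread alone, and that spread may be technical. Each group has a single siRNA label, and no untransfected group is included. Loss of NPM1c therefore cannot be told apart from other effects of the siRNA.

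All members share an amino-terminal DNA-binding domain that recognises GAAA repeats, the core of the interferon-stimulated response element (ISRE). IRF3 and IRF7 are activated by kinases downstream of nucleic acid sensors and switch on type I interferon genes, while IRF9 joins STAT2 in ISGF3, the complex that carries the interferon receptor's signal to ISREs. IRF1 is an activator induced by interferon and IRF2 its antagonist on the same sites. IRF4 and IRF8 are blood-cell factors that bind jointly with PU.1, and IRF8 steers progenitors toward monocytes and dendritic cells.

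Libraries held 15075235 to 25190122 counts. Ribosomal RNA genes took 70.2% ± 0.813 (SD, n = 3) of counts in siNPM1c libraries and 63.8% ± 0.753 in siControl libraries, and protein-coding genes took 21.8% ± 0.495 and 28.5% ± 0.457. Values are CPM, read counts relative to library size, after TMM scaling, which assumes that most genes do not differ. Without that scaling (library sizes alone) the median gene moved by -0.48 on the log2 scale, so directions are relative to that shift, and the value of each tested member without the scaling is given beside it. NPM1, the targeted gene, was at 22.04, 24.0 and 23.6 CPM in siNPM1c libraries, against 51.3, 49.5 and 49.6 CPM in siControl libraries (log2 fold change -1.10 ± 0.05 SE, edgeR adjusted p = 5.82e-51). These counts are per gene and do not separate mutant from other NPM1 transcripts.

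The members fell into a high and a low tier of transcript level. Per kilobase of annotated exon, IRF8 was the most abundant, at 42.3 ± 1.17 CPM per kb in siNPM1c libraries and 25.6 ± 0.738 CPM per kb in siControl libraries (SD, n = 3 each). IRF5, a factor of Toll-like receptor signalling in myeloid cells, stood at 39.6 ± 0.742 and 23.9 ± 0.790 CPM per kb. IRF7 stood at 39.6 ± 2.03 and 22.9 ± 1.06 CPM per kb. Within each group the means of IRF5 and IRF7 lay within 1 SD of IRF7, so their order is not settled. IRF3 came next, at 11.5 ± 0.579 CPM per kb in siNPM1c and 10.7 ± 0.467 in siControl libraries, and IRF9 at 6.30 ± 0.591 and 6.34 ± 0.208. IRF1 had 2.67 ± 0.0421 and 2.05 ± 0.0896 CPM per kb and IRF2 1.84 ± 0.266 and 1.72 ± 0.443. In siControl libraries the means of IRF1 and IRF2 lay within 1 SD of IRF2. With the longest transcript in place of all exons, IRF5 ranked above IRF7 in both groups, and no other member changed rank. The gap between IRF3 and IRF9 narrowed with that length. IRF3 was then at 15.1 ± 0.765 CPM per kb in siNPM1c and 14.1 ± 0.617 in siControl libraries, and IRF9 at 13.0 ± 1.22 and 13.1 ± 0.430.

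**Figure D1:**
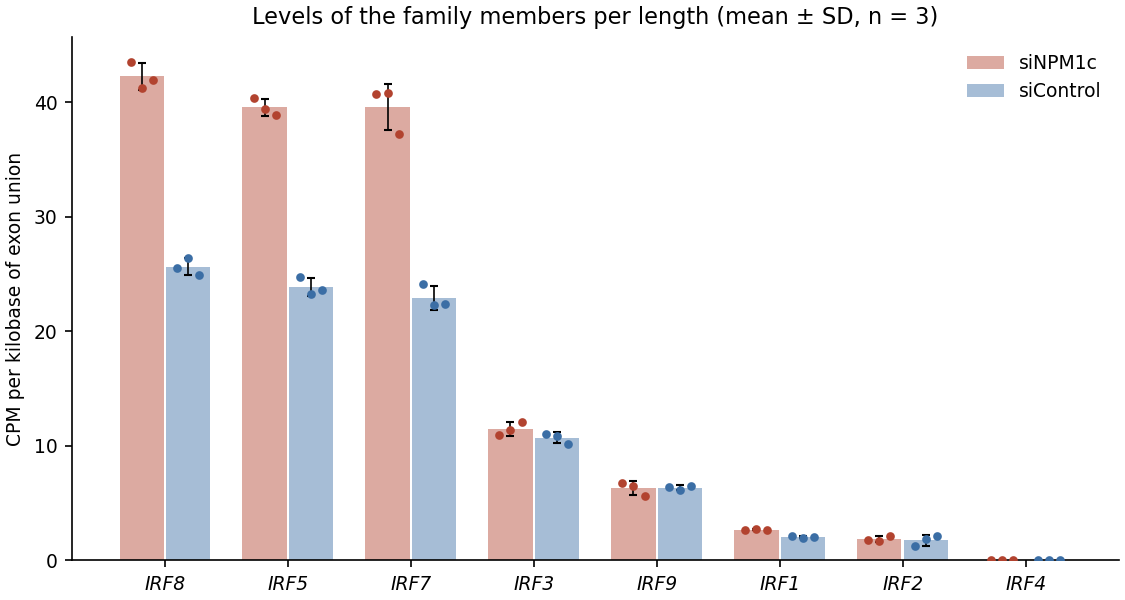
Transcript level of the 8 genes in CPM per kilobase of exon union, with siNPM1c bars left of siControl bars, points for libraries and error bars for SD (n = 3). IRF8, IRF5 and IRF7 stand between 22.9 and 42.3 CPM per kb, all other members at or under 11.5.

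IRF4 was at or near the detection limit. This gene, the lymphoid and plasma cell factor, had 1, 3 and 0 raw counts in siNPM1c libraries and 1, 0 and 2 raw counts in siControl libraries. A limit of 3 counts per library corresponds to 0.109 to 0.226 CPM here, for counting error only, and no difference could be measured for IRF4 at this depth. Markers of B and plasma cells, where IRF4 is high, were also low. Their 8 genes summed to 4.36 to 5.27 CPM in siNPM1c libraries and 1.52 to 2.89 CPM in siControl libraries, with JCHAIN and TNFRSF17 at 0 in every library. Of the 2 tested, 1 was called. This was PAX5, the B-lineage factor, at 2.99 ± 0.229 CPM in siNPM1c libraries and 0.644 ± 0.223 CPM in siControl libraries. PAX5 had 43, 58 and 44 raw counts in siNPM1c and 15, 11 and 13 in siControl libraries. It was abundant enough for testing in every siNPM1c library but not in every siControl library, so its call is not counted as support. Its part in the results on IRF genes was not tested.

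In the comparison of siNPM1c with siControl, IRF1, IRF5, IRF7 and IRF8 rose, IRF2, IRF3 and IRF9 did not pass the test, and no member fell. That is 4 of 7 tested members called higher by edgeR's quasi-likelihood test at a Benjamini-Hochberg adjusted p under 0.05, where 21.3% of all 12938 tested genes were called higher and 42.7% in either direction. With library sizes alone 3 members were higher (IRF5, IRF7 and IRF8) and 3 lower (IRF2, IRF3 and IRF9), where 3.9% of all tested genes were higher and 71.5% lower. A rise of at least 1.5-fold was reached by 3 of the 7 members and by 6.77% of tested genes. The groups of libraries did not overlap for the 4 members that rose, which 49.2% of all tested genes share. The median log2 fold change was 0.39 over the 7 members and -0.01 over all tested genes. In bulk RNA, more cells with a transcript and more transcript per cell cannot be told apart.

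**Figure D2:**
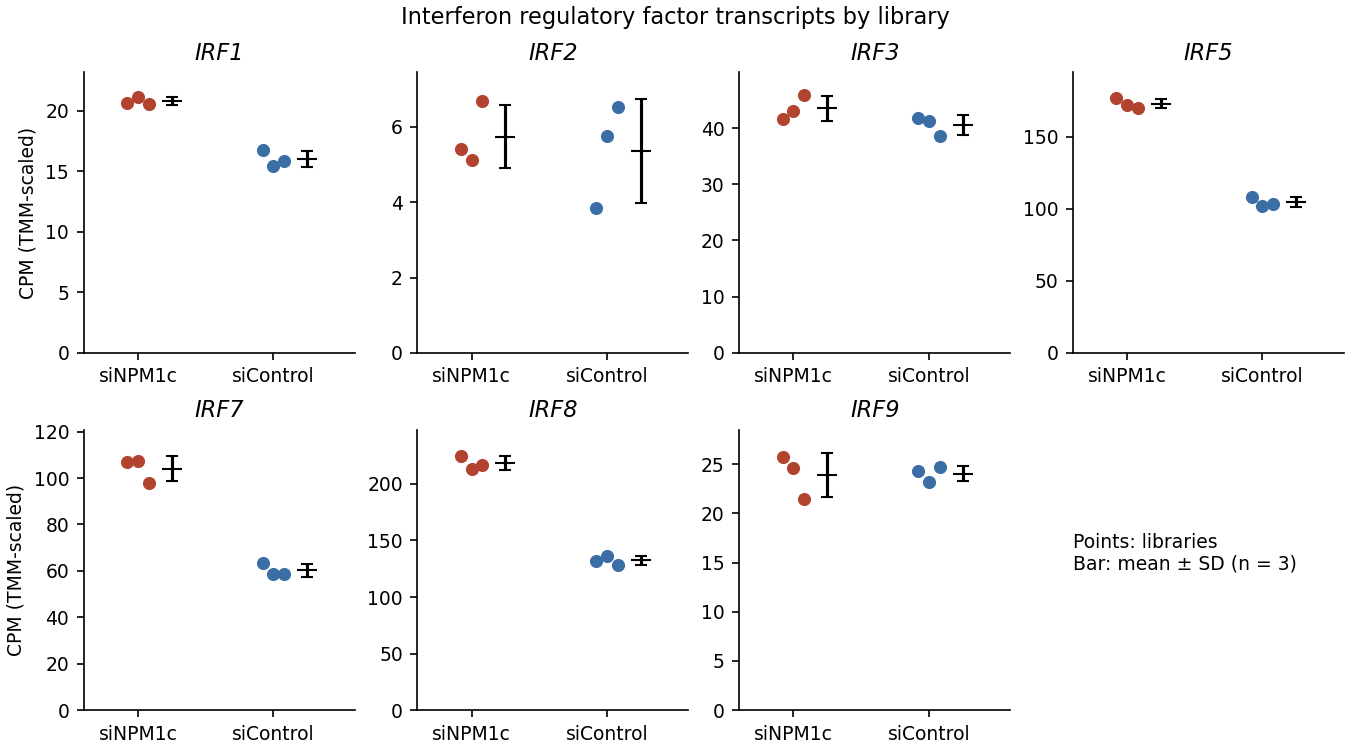
TMM-scaled CPM of the 7 tested members in each library (points), with mean ± SD (n = 3) beside them and siNPM1c left of siControl. For IRF1, IRF5, IRF7 and IRF8 every siNPM1c library lies above every siControl library, while IRF2, IRF3 and IRF9 overlap.

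IRF7, the interferon-inducible partner of IRF3 and the amplifier of interferon-alpha production, had the largest fold change of the family under TMM scaling, while IRF8 ranked first with GC correction. IRF7 was at 107, 107 and 97.9 CPM in siNPM1c libraries, against 63.5, 58.6 and 58.8 CPM in siControl libraries. The lowest siNPM1c library stood well above the highest siControl library. The rise was 1.73-fold (log2 0.79 ± 0.04 SE, edgeR adjusted p = 9.50e-55). Without TMM it was 0.32 and still called. IRF7 (Entrez gene 3665) spans 612553 to 615999 on chromosome 11 in GENCODE 29 on GRCh38, on the minus strand, 331 bases from PHRF1 on the plus strand and 566 bases from CDHR5. PHRF1, a gene of a ubiquitin ligase, had a log2 fold change of 0.27 ± 0.04 and CDHR5, a cadherin gene, one of -0.43 ± 0.15, whose call was lost without siNPM1c replicate 1 or 3 or siControl replicate 2 (-0.36 to -0.32) and in DESeq2 (-0.43). Without TMM, PHRF1 had -0.19.

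IRF3, the constitutive sensor-activated member, was at 41.5, 43.1 and 45.9 CPM in siNPM1c libraries and at 41.9, 41.3 and 38.6 CPM in siControl libraries. The ranges overlapped. Its log2 fold change was 0.10 ± 0.05 (SE), with an unadjusted p of 0.0461 and an adjusted p of 0.0949 by edgeR. Without siNPM1c replicate 1 it was called higher (0.13, edgeR adjusted p = 0.0431), and with library sizes alone it was called lower at -0.37. IRF3 (chromosome 19, 49659569 to 49665875, minus strand) shares 734 exonic bases with BCL2L12 on the opposite strand, and reads in that stretch cannot be told apart, since whether counting used strand is not given in the sources used here. BCL2L12, a gene of the BCL2 family, had a log2 fold change of 0.06 ± 0.08. SCAF1, a splicing-related gene 927 bases away, had one of 0.31 ± 0.03, and -0.15 with library sizes alone.

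IRF5, which acts with MyD88 in the induction of inflammatory cytokines, was at 177, 172 and 170.3 CPM in siNPM1c libraries, against 108, 102 and 103 CPM in siControl libraries. The groups were far apart relative to their spread. It amounted to 1.66-fold (log2 0.73 ± 0.03 SE, edgeR adjusted p = 1.70e-64), and to 0.26 log2 with library sizes alone, again called. IRF5 lies on chromosome 7 at 128937612 to 128950035 on the plus strand, and its opposite-strand neighbour TNPO3, a nuclear import receptor gene 4145 bases away, had a log2 fold change of -0.00 ± 0.05.

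IRF8 was at 225, 213 and 217 CPM in siNPM1c libraries, against 132, 136 and 129 CPM in siControl libraries. Every siNPM1c value exceeded every siControl value by a wide margin. IRF8 rose 1.64-fold (log2 0.72 ± 0.03 SE, edgeR adjusted p = 4.88e-69), and by 0.25 log2 with library sizes alone, still called. IRF8 lies on chromosome 16 at 85898803 to 85922609 on the plus strand, and no annotated gene shares exon sequence with it. Its GC content (52.1%) was lower than that of IRF7 (66.9%) and IRF5 (61.3%). With a correction of each library's GC trend the log2 fold changes became 0.70 for IRF8, 0.67 for IRF7 and 0.64 for IRF5, all called.

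IRF1 was at 20.6, 21.2 and 20.6 CPM in siNPM1c libraries, against 16.8, 15.4 and 15.8 CPM in siControl libraries. The groups did not overlap, but the difference was the smallest of the 4. IRF1 rose 1.31-fold under TMM scaling (log2 0.39 ± 0.07 SE, edgeR adjusted p = 1.91e-06), while with library sizes alone the value was -0.085 and not called (adjusted p = 0.305). IRF2 was at 5.42, 5.13 and 6.69 CPM in siNPM1c libraries and at 3.84, 5.76 and 6.52 CPM in siControl libraries, and the siControl libraries alone spanned nearly the whole range. Its log2 fold change was 0.07 ± 0.13 (SE, edgeR adjusted p = 0.709), and -0.40 with library sizes alone, where it was called lower (adjusted p = 0.00451). IRF1 (chromosome 5, 132481609 to 132490798, minus strand) shares 1716 exonic bases with the noncoding gene CARINH on the opposite strand. CARINH had 12, 24 and 14 raw counts in siNPM1c libraries and 17, 15 and 19 in siControl libraries, few beside the 274 to 442 and 294 to 426 raw counts of IRF1. A protein-coding gene annotated as AC116366.3, also on the opposite strand, shares 469 exonic bases with IRF1 and has no value here.

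IRF9, the DNA-binding subunit of ISGF3, was at 25.7, 24.6 and 21.4 CPM in siNPM1c libraries and at 24.3, 23.1 and 24.7 CPM in siControl libraries. The siControl range lay inside the siNPM1c range. Its log2 fold change was -0.00 ± 0.06 (SE, edgeR adjusted p = 0.997), and -0.47 with library sizes alone, where it was called lower. STAT2, its partner in that complex, rose. It was at 172, 175 and 181 CPM in siNPM1c libraries, against 90.6, 95.5 and 93.9 CPM in siControl libraries (log2 fold change 0.91 ± 0.03, edgeR adjusted p = 8.31e-80). The call held with library sizes alone. IRF9 (chromosome 14, 24161053 to 24166565, plus strand) lies 392 bases from RNF31, a gene of the linear ubiquitin ligase, which had a log2 fold change of 0.18 ± 0.05, and -0.29 with library sizes alone. A protein-coding gene annotated as AL136295.5, on the same strand, shares 1838 exonic bases with IRF9 and has no value here.

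**Figure D3:**
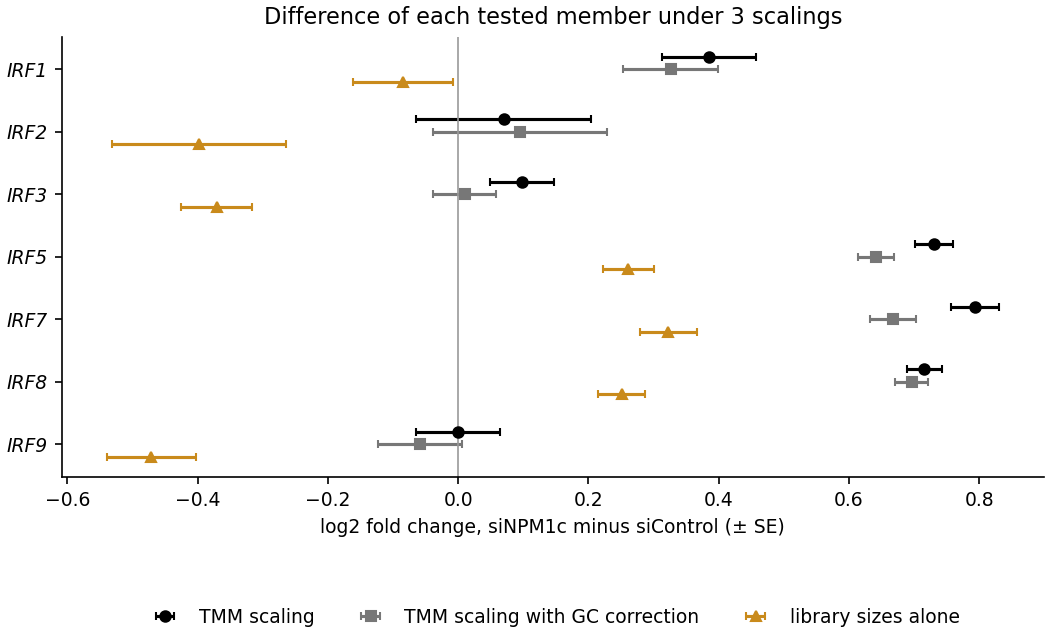
Log2 fold change of each tested member, siNPM1c minus siControl, ± SE, under TMM scaling, TMM scaling with GC correction, and library sizes alone. IRF5, IRF7 and IRF8 stay above 0 in all 3, between 0.25 and 0.79, whereas IRF1 changes sign at -0.085 with library sizes alone and IRF2, IRF3 and IRF9 move to between -0.47 and -0.37.

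The ratio of raw counts of 2 genes within a library does not depend on how libraries are scaled, and 3 such ratios were compared between the groups by exact permutation (two-sided), where the smallest possible p is 0.1. For IRF7 over IRF3, the inducible over the constitutive member, the ratio was 2.58, 2.49 and 2.13 in siNPM1c libraries, against 1.52, 1.42 and 1.53 in siControl libraries. The groups did not overlap, and the log2 difference was 0.69 ± 0.09 (SE, exact p = 0.1, adjusted over the 3 ratios 0.15). For IRF9 over STAT2 the ratio was 0.149, 0.141 and 0.118 in siNPM1c libraries, against 0.268, 0.242 and 0.263 in siControl libraries. IRF9 was thus lower relative to STAT2 in every siNPM1c library, by a log2 difference of -0.93 ± 0.11 (exact p = 0.1, adjusted 0.15). For IRF1 over IRF2, activator over antagonist, the ratio was 3.81, 4.13 and 3.08 in siNPM1c libraries and 4.38, 2.68 and 2.43 in siControl libraries. These overlapped, with a log2 difference of 0.26 ± 0.29 (exact p = 0.5), which is no larger than its error. A ratio of IRF8 to IRF4 could not be formed because IRF4 had 0 counts in 2 libraries.

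Setting IRF1, IRF5, IRF8 and IRF9 against IRF3 as well, a choice made after the values were seen, gave these ratios. IRF5 over IRF3 averaged 3.99 ± 0.271 in siNPM1c and 2.58 ± 0.106 in siControl libraries, and IRF8 over IRF3 averaged 5.03 ± 0.352 and 3.26 ± 0.0994 (SD, n = 3 each). IRF1 over IRF3 averaged 0.479 ± 0.0260 and 0.395 ± 0.0192. None of these 3 ratios overlapped between groups. IRF9 over IRF3 averaged 0.553 ± 0.0781 and 0.594 ± 0.0412, with overlap. Over these 4 ratios the exact permutation p (two-sided) was 0.1 for the 3 that did not overlap (adjusted 0.133) and 0.5 for IRF9 over IRF3.

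**Figure D4:**
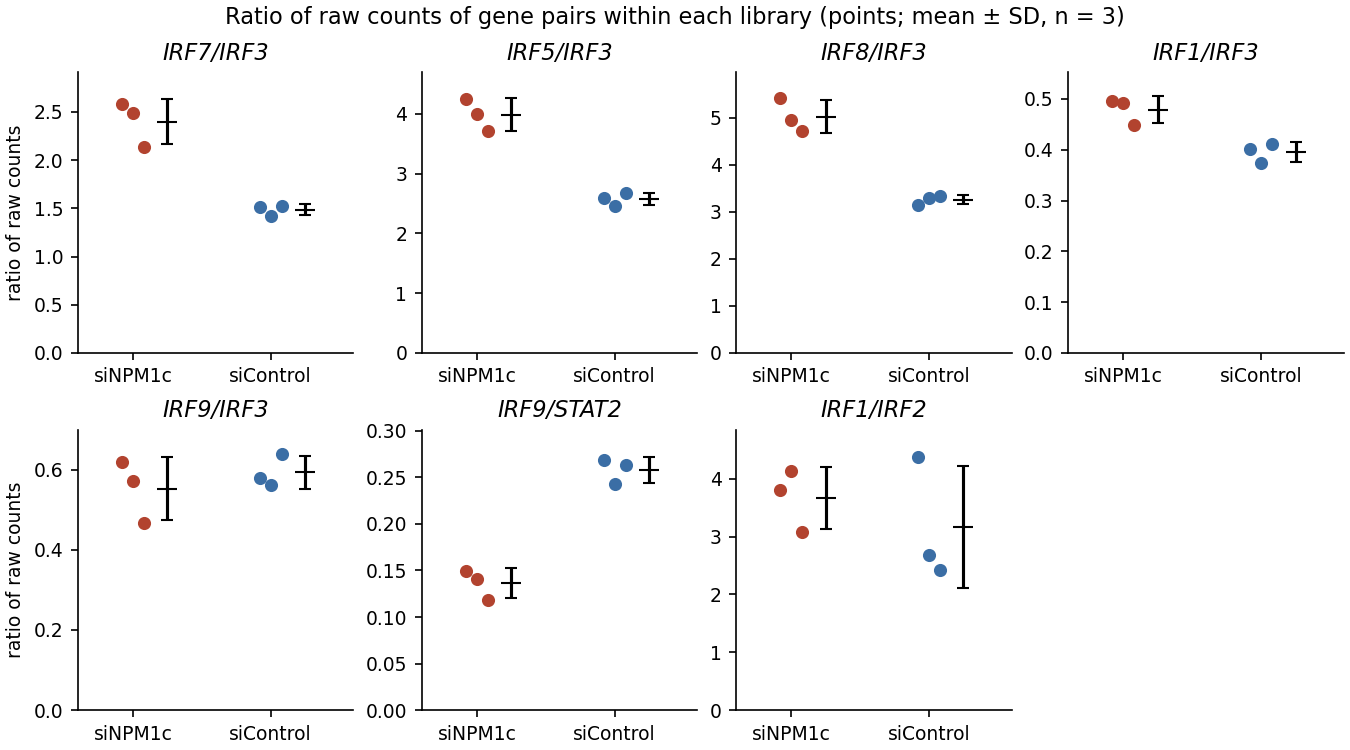
Ratio of raw counts of gene pairs within each library (points), with mean ± SD (n = 3) and siNPM1c left of siControl. The ratios of IRF7, IRF5, IRF8 and IRF1 to IRF3 are higher in every siNPM1c library, that of IRF9 to STAT2 is lower in every siNPM1c library, and IRF9/IRF3 and IRF1/IRF2 overlap.

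The make-up of the family followed from these values. Summed over the 8 members, the level was 144 ± 3.06 CPM per kb in siNPM1c libraries and 93.3 ± 1.86 CPM per kb in siControl libraries. IRF8 made up 29.4% ± 0.606 and 27.5% ± 0.863 of that sum, IRF7 27.5% ± 0.974 and 24.6% ± 0.682, and IRF5 27.5% ± 0.127 and 25.6% ± 0.462. The share of IRF3 was 7.98% ± 0.573 in siNPM1c libraries and 11.5% ± 0.339 in siControl libraries, and that of IRF9 was 4.38% ± 0.326 and 6.79% ± 0.265. These shares depend on the annotated lengths and were not tested.

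The promoters of IRF1, which rose, and IRF9, which did not pass the test, are printed because they were the 2 with a match to the motif searched for. RefSeq (GRCh38.p14) gave 9 start-site windows for 5 members (IRF1, IRF4, IRF5, IRF8 and IRF9), and each window ran from 250 bases before to 50 bases after the start. The letters TTCNNNGAA, the core of a STAT-binding GAS element and its own reverse complement, were found in 2 of the 9 windows, those of IRF1 and IRF9, and in 7.66% of all 35116 promoter windows. The response element core, GAAA repeated after any 2 bases, on either strand, was found in no member window and in 3.57% of all windows. For IRF1 and IRF9 the 250 bases before the start are given, and for ISG15 a shorter stretch of 100 bases around its matches, which ends before the start is reached. All run 5′ to 3′ on the gene's strand, with matches in capitals.
IRF1 (chr5:132490774-132491023, minus strand): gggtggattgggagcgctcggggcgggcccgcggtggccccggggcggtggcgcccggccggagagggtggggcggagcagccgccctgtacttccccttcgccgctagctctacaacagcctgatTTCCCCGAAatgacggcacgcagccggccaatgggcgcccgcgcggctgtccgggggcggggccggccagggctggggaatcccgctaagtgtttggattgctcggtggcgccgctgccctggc
IRF9 (chr14:24161015-24161264, plus strand): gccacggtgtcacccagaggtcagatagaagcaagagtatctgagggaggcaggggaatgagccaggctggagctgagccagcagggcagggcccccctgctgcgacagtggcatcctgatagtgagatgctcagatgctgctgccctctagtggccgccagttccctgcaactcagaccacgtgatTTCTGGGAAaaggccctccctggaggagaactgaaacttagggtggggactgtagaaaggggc
ISG15 (chr1:1013347-1013446, plus strand): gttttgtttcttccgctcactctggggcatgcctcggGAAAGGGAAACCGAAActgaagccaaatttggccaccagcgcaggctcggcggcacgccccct
The match lies 124 bases before the RefSeq start in IRF1 and 63 bases before it in IRF9. For both genes part of the printed stretch lies inside the GENCODE span given above, and in IRF9 that part holds the match. ISG15 is shown for the element that gives the family its site: its capitals are 2 overlapping matches to that core, the first 113 bases before the start. ISG15 itself, a ubiquitin-like modifier, was at 326, 319 and 325 CPM in siNPM1c libraries, against 66.8, 68.2 and 64.4 CPM in siControl libraries. Matches describe these letters only.

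Transcripts of the interferon genes, among them type I genes that IRF3 and IRF7 induce, were at or near 0. None of the 22 interferon genes was abundant enough to be tested, and 17 had no count in any library. IFNB1, the first interferon of a typical antiviral response, had 0, 1 and 0 raw counts in siNPM1c libraries and 0, 1 and 0 in siControl libraries. The highest was IFNK, an interferon of keratinocytes, with 5, 11 and 1 raw counts in siNPM1c libraries against 13, 15 and 3 in siControl libraries. The list summed to 0.0675 to 0.623 CPM in siNPM1c libraries and 0.269 to 0.778 CPM in siControl libraries.

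Upstream of the family, 5 of 7 tested nucleic acid sensor genes rose and 0 fell. Their log2 fold changes had a median of 0.94, where the median of all tested genes was -0.01. Without TMM the numbers were 4 higher and 2 lower. Of all tested genes 21.3% rose and 21.4% fell, and 3.9% and 71.5% without TMM. The 5 include TLR9, which was abundant enough for testing in every siNPM1c library but not in every siControl library. IFIH1, the gene of the RNA sensor MDA5, averaged 21.3 ± 1.62 CPM in siNPM1c and 10.0 ± 1.64 CPM in siControl libraries (SD, n = 3 each). RIGI, the sensor of short double-stranded RNA, had a log2 fold change of 0.94 ± 0.09 (SE) and DHX58, a further RIG-I-like receptor, one of 0.98 ± 0.07. This list and those that follow were chosen with earlier results of these data known, so their counts are descriptive.

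Among the 18 kinases and adaptors that activate IRF3, IRF5 and IRF7, 9 rose, 1 fell and 8 did not pass the test. Their median was 0.20, and of all tested genes 21.3% rose and 21.4% fell. TASL, the adaptor that links a lysosomal transporter to IRF5, averaged 43.0 ± 2.57 CPM in siNPM1c and 23.5 ± 0.599 CPM in siControl libraries, a log2 fold change of 0.85 ± 0.06. The adaptor genes MYD88 of Toll-like receptors and TICAM1 of TLR3 had log2 fold changes of 0.54 ± 0.05 and 0.59 ± 0.08. The kinase genes IRAK1 and IKBKE had 0.47 ± 0.03 and 0.26 ± 0.03. MAVS, the mitochondrial adaptor of RNA sensors, fell by 0.09 (SE 0.03) on the log2 scale, a call lost without siNPM1c replicate 3 or siControl replicate 3 (-0.056 and -0.074) and in DESeq2. The number that fell was 3 without siNPM1c replicate 3, 2 without any 1 siControl library, with limma-voom or with GC correction, and 0 in DESeq2. TBK1, the kinase of IRF3, averaged 1.75 ± 0.458 CPM in siNPM1c and 2.35 ± 0.199 CPM in siControl libraries and did not pass the test. Under library sizes alone 1 of the 18 was higher, TASL at 0.39, and 13 were lower, near the 71.5% of all tested genes that were lower under that scaling. IKBKE then had -0.21, and IRAK1, MYD88 and TICAM1 were not called.

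Of 14 tested cofactors and brakes of the family, 9 rose and 1 fell, with a median of 0.33. With library sizes alone 4 were higher and 6 lower. The shares of all tested genes were 21.3% higher and 21.4% lower with TMM scaling, and 3.9% and 71.5% with library sizes alone. SPI1, the gene of PU.1 with which IRF4 and IRF8 bind, averaged 124 ± 1.802 CPM in siNPM1c and 79.6 ± 1.65 CPM in siControl libraries (SD, n = 3 each), a rise of 0.64 ± 0.03 log2 (SE), beside 0.72 ± 0.03 for IRF8. The ubiquitin ligase genes RBCK1 and TRIM21 rose by 0.66 ± 0.04 and 0.59 ± 0.09, and ETV6, a repressor of the ETS family, by 0.39 ± 0.04, with -0.077 for ETV6 and no call for TRIM21 (0.13) with library sizes alone. The corepressor genes named for IRF2 differed among themselves. IRF2BPL rose by 0.64 ± 0.07 log2 and IRF2BP2 fell by 0.12 (SE 0.02).

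Among 8 tested interferon receptor and Janus kinase genes, 5 rose and 1 fell, with a median of 0.27. With library sizes alone 1 was higher and 4 were lower. All tested genes had shares of 21.3% higher and 21.4% lower with TMM scaling, and 3.9% and 71.5% with library sizes alone. JAK2, the kinase of the interferon-gamma receptor, averaged 12.7 ± 0.657 CPM in siNPM1c and 5.28 ± 0.441 CPM in siControl libraries, a rise of 1.26 ± 0.11 log2. IFNAR2 and IFNGR2, a chain each of the type I and type II receptors, rose by 0.41 ± 0.05 and 0.44 ± 0.06, with -0.063 and -0.029 with library sizes alone. IFNAR1, the other type I chain, fell by 0.15 (SE 0.06), a call lost without any 1 of siNPM1c replicates 2 and 3 and siControl replicates 1 and 2 (-0.16 to -0.11), with GC correction, with protein-coding genes only, and in DESeq2 and limma-voom.

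Downstream, 24 of 25 tested ISRE-driven genes rose and 0 fell, both with TMM scaling and with library sizes alone. Their medians were 1.56 and 1.09, and the shares of all tested genes that rose were 21.3% and 3.9%. The list was chosen with earlier results of these data known, so its count is not independent support. The 24 include CXCL10, abundant enough for testing only through siNPM1c libraries (11, 18 and 11 raw counts, against 5, 1 and 4 in siControl libraries). ISG15 had a log2 fold change of 2.28 ± 0.03 (SE), IFI6, a mitochondrial survival protein, 1.72 ± 0.02, and OAS3, an oligoadenylate synthetase, 1.56 ± 0.03. The gene that did not pass was IFIT5, at 0.17 ± 0.18, and at -0.30 with library sizes alone. MX2, an antiviral GTPase, had the smallest change among those that rose, at 0.68.

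Of 18 tested genes that depend on IRF1, 14 rose and 0 fell, with a median of 0.48. With library sizes alone 5 were higher and 7 lower. Over all tested genes 21.3% were higher and 21.4% lower, and 3.9% and 71.5% with library sizes alone. The 14 include IDO1, abundant enough for testing only through siNPM1c libraries (14, 28 and 33 raw counts, against 2, 7 and 3 in siControl libraries). TAP1, the peptide transporter, averaged 57.0 ± 1.55 CPM in siNPM1c and 35.1 ± 1.17 CPM in siControl libraries, and APOL6, an apolipoprotein L gene, 61.1 ± 2.43 and 34.3 ± 1.16 CPM (SD, n = 3 each). NLRC5, the activator of class I genes, had a log2 fold change of 0.51 ± 0.04, B2M, the class I light chain, 0.53 ± 0.04 and TAPBP, the tapasin gene, 0.38 ± 0.03, with -0.091 for TAPBP with library sizes alone, where NLRC5 (0.038) and B2M (0.061) were not called either way.

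Genes linked to IRF8 and PU.1 in monocytes and macrophages were called in both directions, 7 higher and 3 lower of 13 tested, where 21.3% of all tested genes were higher and 21.4% lower, with a median of 0.30, and 5 were higher and 6 lower under library sizes alone. Lysozyme's gene LYZ and CSF1R, the receptor of macrophage colony-stimulating factor, had log2 fold changes of 2.32 ± 0.03 and 2.03 ± 0.10. PML, a nuclear body protein, rose by 0.63 ± 0.03 and CST3, the protease inhibitor cystatin C, by 0.30 ± 0.03, with -0.16 for CST3 with library sizes alone. CYBB, the oxidase subunit of phagocytes, was at 28.7, 25.6 and 23.2 CPM in siNPM1c libraries, against 40.6, 41.8 and 42.6 CPM in siControl libraries, and fell by 0.70 (SE 0.06) on the log2 scale. CTSC, a lysosomal protease, fell by 0.35 (SE 0.07) and CX3CR1, the fractalkine receptor, fell by 1.57 (SE 0.22).

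Of 9 tested genes of the lymphoid programme of IRF4, 6 rose and 1 fell, with a median of 0.74. IRF4 itself was at the detection limit. With library sizes alone 4 were higher and 2 lower. Of all tested genes 21.3% rose and 21.4% fell, and 3.9% and 71.5% with library sizes alone. The number that fell was 0 in DESeq2 or without siNPM1c replicate 1, siNPM1c replicate 2 or siControl replicate 3. The 6 include SLAMF7, which was abundant enough for testing in every siNPM1c library but not in every siControl library. AHR, the aryl hydrocarbon receptor, CD38, an ectoenzyme, and BCL6, a repressor, rose by 0.75 ± 0.09, 0.76 ± 0.10 and 0.93 ± 0.13 log2.

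**Figure D5:**
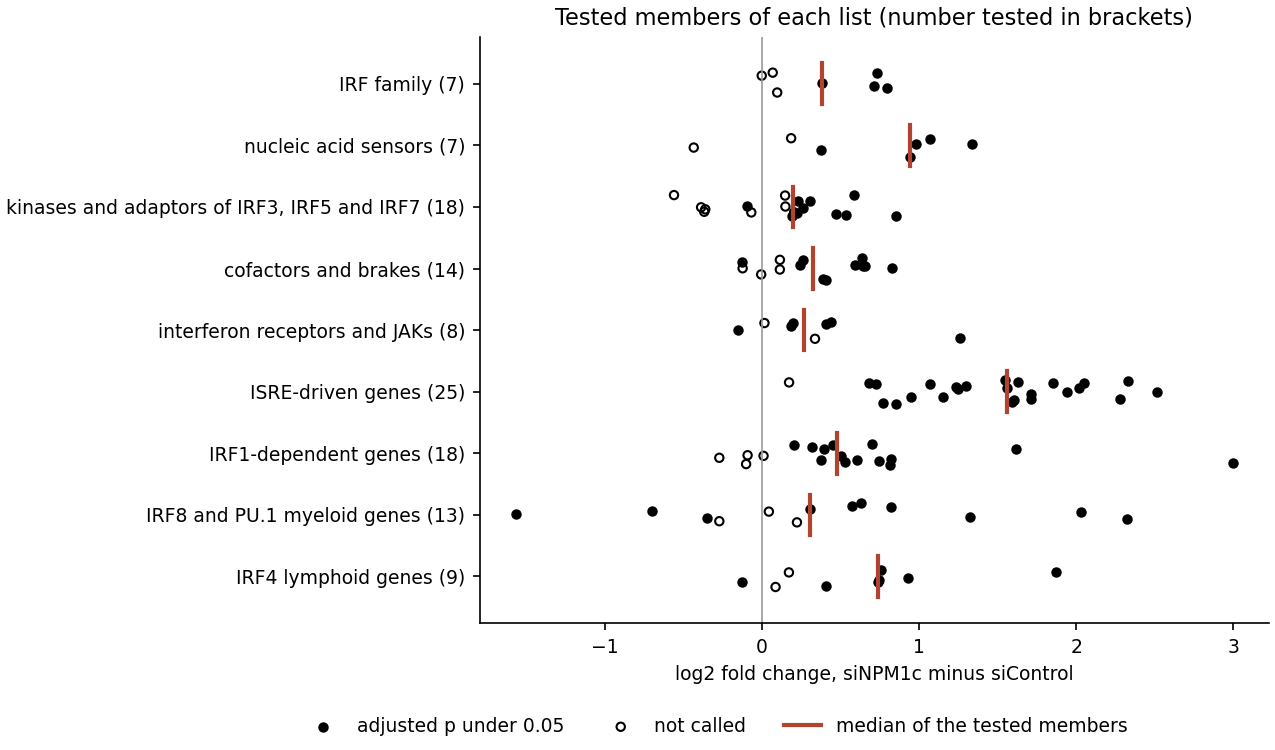
Log2 fold change, siNPM1c minus siControl, of the tested members of each list, with filled points for an edgeR adjusted p under 0.05, open points for genes not called and a bar at the median. The family's median is 0.39, that of the ISRE-driven genes 1.56 and that of the kinases and adaptors 0.20.

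Markers of a myeloid leukaemia line were present in part, and of 7 tested 4 rose and 1 fell. With library sizes alone 2 were higher and 4 lower. Among all tested genes 21.3% were higher and 21.4% lower, and 3.9% and 71.5% with library sizes alone. The 4 include MPO, which was abundant enough for testing in every siNPM1c library but not in every siControl library. SPI1 and CEBPA were at 124 ± 1.802 and 259.8 ± 3.27 CPM in siNPM1c libraries and 79.6 ± 1.65 and 217 ± 3.34 CPM in siControl libraries (CEBPA -0.21 log2 with library sizes alone), whereas KIT had 0 to 2 raw counts per library. PTPRC, the leukocyte gene CD45, fell by 0.57 (SE 0.05) on the log2 scale. Summed T and NK cell markers were at 1.20 to 1.62 and 0.754 to 1.28 CPM and erythroid markers at 0.203 to 0.479 and 0.108 to 0.389 CPM, in siNPM1c and siControl libraries in that order. Plasmacytoid dendritic cell markers, a type with high IRF7 and IRF8, summed to 27.5 to 33.9 CPM in siNPM1c and 32.3 to 34.1 CPM in siControl libraries. Of the 3 tested, 0 rose and 1 fell (3 lower under library sizes alone), TCF4, by 0.18 (SE 0.07) with overlapping groups. That call was lost without any 1 of siNPM1c replicates 1 and 3 and siControl replicates 1 and 2, with GC correction, and in DESeq2 and limma-voom. GZMB, the granzyme B gene, had too few counts to be tested over all libraries. It had 12, 20 and 3 raw counts in siNPM1c and 6, 12 and 3 in siControl libraries. Without siNPM1c replicate 3, siControl replicate 1 or siControl replicate 2 it entered the test and was called higher. It entered only through siNPM1c libraries, where it was higher, so those calls are no support for a rise. CLEC4C, a defining marker of that type, had at most 1 count per library.

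Genes whose log2 CPM followed a member most closely over the 6 libraries were found by Pearson's r, which mainly reflects the group difference that all of them share. For IRF7 they were the histone variant gene MACROH2A1 and RAPGEF1, an exchange factor gene (r = 0.999 each), and for IRF5 the antiviral genes MX2 and PARP10 (r = 1.00 each, rounded). For IRF8 they were the stress factor gene ATF3 and the HLA pseudogene HLA-H (r = 0.999 each), and for IRF1 BSDC1 and the small nucleolar RNA gene SNORD17 (r = 0.999 each). Their own log2 fold changes ran from 0.25 for BSDC1 to 1.94 for ATF3.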

How the data were processed

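Total RNA from OCI-AML3 cells was measured in 6 libraries. The authors deposited raw read counts per gene, labelled by NCBI gene identifier. Tools listed per the submitters' processing notes are STAR 2.7.5a, cutadapt 2.6, DESeq2 1.34.0 and CASAVA 1.8, with genome builds mm10 and hg38. Their roles, the counting tool, the annotation and the strand setting are not given in the sources used here. Symbols came from RefSeq, which named 28240 of 28307 genes, and positions, lengths and GC content from GENCODE 29.

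Counts were filtered with filterByExpr (minimum count 10, minimum total 15), scaled by TMM and tested in edgeR 4.0.16 (R 4.3.3) with the quasi-likelihood test and Benjamini-Hochberg adjustment over all tested genes. A gene was called at an adjusted p under 0.05. CPM used TMM-scaled library sizes, and the SE is the log2 fold change over the square root of F. DESeq2 1.42.0 and limma-voom (limma 3.58.1) were alternatives. Depth limits precision, and count limits cover counting error only. The script was tested on simulated data with balanced rises and falls, which cannot test the choice of scaling.

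The members and gene lists were chosen with earlier results of these data known. Named genes were every member, NPM1, STAT2, the called genes of smallest p in each list (3, or 5 in 4 lists), the 2 genes most like each called member, and genes within 5 kb. MAVS, TBK1, IRF2BP2, IFNAR1, CX3CR1, CTSC, IFIT5, IFNB1, IFNK, KIT, GZMB and CLEC4C, and the ratios to IRF3, were chosen after their values were seen. A planned comparison of protein sequences was not run, and some genes are not reported here.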

Additional observations from a re-analysis of the deposited data

How the results depend on the processing

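The 4 calls among the members were kept under DESeq2 size factors, TMM without structural RNA genes, both other filters, DESeq2, limma-voom, GC correction and protein-coding genes only. Without siNPM1c replicate 1 there were 5 members called higher, IRF3 being added, and over all libraries left out in turn the count was 4 to 5 higher and 0 lower. Over those settings all genes gave 2435 to 2675 higher and 2196 to 2579 lower. DESeq2 called 1754 of all genes lower. With library sizes alone, 505 genes were higher and 9253 lower, and 3 members were higher and 3 lower.

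With library sizes alone the sign turned for IRF1 (-0.085), IRF2 (-0.40), IRF3 (-0.37), IKBKE (-0.21), ETV6 (-0.077), IFNAR2 (-0.063), IFNGR2 (-0.029), TAPBP (-0.091), CEBPA (-0.21), BSDC1 (-0.22), CARINH (-0.13), BCL2L12 (-0.41), SCAF1 (-0.15), PHRF1 (-0.19), RNF31 (-0.29), CST3 (-0.16) and IFIT5 (-0.30). Library sizes alone move every gene down by a similar amount, with the median gene at -0.48 against -0.01 with TMM. The genes that turned lay above 0 by less than that shift. What caused the shift between the groups was not tested. IRF9 and TNPO3, near 0, turned sign under DESeq2 size factors (0.0052 and 0.0025), TMM without structural RNA genes (0.0041 and 0.0014), DESeq2 (0.0018 and 0.0042) and protein-coding genes only (0.012 and 0.0096). TNPO3 also did so with GC correction (0.035). With libraries left out in turn, the value ran from -0.037 to 0.071 for IRF9, -0.096 to 0.200 for IRF2, -0.036 to 0.026 for TNPO3 and -0.0065 to 0.121 for BCL2L12.

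The within-library ratios ranged over libraries left out from 0.09 to 0.51 for IRF1/IRF2, 0.63 to 0.77 for IRF7/IRF3 and -0.998 to -0.83 for IRF9/STAT2 (log2). Libraries with the same replicate number did not deviate together (r = 0.015, 0.0016 and 0.003), so the numbers were not taken to pair them. With the replicate block 4 members were higher and 0 lower, all genes gave 2793 higher and 2793 lower, and IRF9 had 0.00051. In this balanced design the block cannot move the ratio differences, which stayed at 0.26, 0.69 and -0.93. The exact permutation p with the block was 0.5 for IRF1/IRF2 and 0.25 for IRF7/IRF3 and IRF9/STAT2.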
